A study of Mus musculus with 16 samples.

Results

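Transcripts of 8 neurotrophic factor and receptor genes were examined in the neonatal mouse cochlea with and without ablation of Lgr5+ supporting cells. The 8 genes were taken by symbol, and all 8 were found among 47729 genes with values and passed the filter on low values, as did 16994 genes in all. They encode 3 secreted factors (Ntf3, Bdnf and Gdnf) and 5 receptors or co-receptors (Ntrk2, Ntrk3, Ngfr, Gfra1 and Sort1). Libraries came from cochleae of P4 mice from which the spiral ganglion, Reissner's membrane and the lateral wall had been taken away, and each of 8 pools gave an input library (RNA of the whole homogenate) and an IP library (RNA on ribosomes pulled down through HA-tagged Rpl22). Control mice carried GLAST-CreERT and Rpl22-HA. DTR mice carried the same alleles plus Lgr5-DTR, in which the diphtheria toxin receptor is driven by the endogenous Lgr5 locus. By the study's methods both received diphtheria toxin and tamoxifen at P1, while the sample labels give "No treatment" for control and "DTR treated" for DTR libraries. Each of the 4 groups, input and IP of either treatment, had 4 libraries. The ribosome tag is restricted to cells in which the Glast promoter drives Cre, which the study places mainly in the greater epithelial ridge and among inner phalangeal cells, and each library holds several mice.

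Neurotrophins are small secreted proteins that keep sensory neurons alive and guide their fibres. NT-3, the product of Ntf3, signals through TrkC (Ntrk3), and BDNF signals through TrkB (Ntrk2), while p75NTR (Ngfr) binds all neurotrophins and pairs with sortilin (Sort1) to bind their uncleaved precursors. GDNF belongs to a separate family and acts through GFRα1 (Gfra1) with the Ret kinase. In the inner ear, supporting cells and hair cells make NT-3 and BDNF, and spiral ganglion neurons carry the Trk receptors.

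Reads counted on genes ranged from 28089836 to 41966310 per library, and a count of 3 reads equalled 0.0715 to 0.107 CPM (counts for each 1000000 counted), far under the lowest level of any of the 8 genes. Lgr5 was at 63.3 CPM in control input and 15.9 CPM in DTR input, with a log2 fold change (LFC) of -2.0 (limma adjusted p = 2.2e-08). Only DTR mice carried the knock-in at the Lgr5 locus, and its part in this LFC was not tested. Of 12 supporting cell markers, 8 were lower after damage in IP and 8 in input, beside 7.3% and 5.21% of all tested genes. Between control IP and control input, 5 of the 12 were higher and 3 lower, beside 19.3% and 20.7% of all tested genes. The higher ones ran from Sox2 (LFC 0.37, limma adjusted p = 0.038) to Lfng (LFC 1.92, adjusted p = 6.8e-08). Lgr5 (LFC -0.80), Fgfr3 (-0.58) and Sparcl1 (-0.49, limma adjusted p = 0.0087), which also mark supporting cells, were lower. Slc1a3, the gene for GLAST itself, did not pass (limma adjusted p = 0.1) and was at 218 to 264 CPM in control IP and 274 to 303 CPM in control input. The 12 hair cell markers summed to 207 to 341 CPM in control IP against 777 to 985 CPM in control input, and none was at 0.

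Per kilobase of annotated exon, Ntf3 was the highest of the 8 genes in control IP, at 29.8 ± 7.46 CPM per kb (SD, n = 4), with no overlap with Gfra1 at 13.2 ± 1.33 CPM per kb. In control input it was at 14.8 ± 3.82 CPM per kb, under Gfra1 (25.4 ± 1.35) and Sort1 (22.1 ± 2.55), whose ranges overlapped each other. In DTR IP, Gfra1 (14.4 ± 3.94), Sort1 (11.2 ± 1.91) and Ntf3 (11.1 ± 4.06 CPM per kb) overlapped in this order. Ntrk3 was the lowest in every group, from 0.686 ± 0.244 CPM per kb in control input to 1.23 ± 0.347 in DTR IP, although its range overlapped that of Gdnf, the next gene, in 3 of the 4 groups and was clear of it in control IP. Lengths were the union of all GENCODE exons, which is 30170 bases for Ntrk3 and 19292 bases for Ntrk2 but 1714 bases for Ntf3, so genes with many alternative exons can have lower values on this scale than a single transcript would give.

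Ntf3 had the largest LFC of the 8 genes after damage. In control cochleae its fitted level in IP was 1.95 times that in input, and after loss of Lgr5+ cells its level in IP was 0.364 times that of control IP. Ntf3 (ENSMUSG00000049107) lies on chromosome 6 of GRCm38 from 126101412 to 126166910 on the minus strand, and no other annotated gene overlaps it. In control input it was at 19.0, 21.2, 33.4 and 28.0 CPM in replicates 1 to 4. In control IP the same pools had 36.5, 44.1, 62.6 and 60.9 CPM. Every control IP library was thus above every control input library, with an LFC of 0.97 ± 0.28 (SE, limma adjusted p = 0.01). In DTR input the values were 10.3, 11.8, 18.2 and 19.7 CPM, and in DTR IP they were 14.0, 12.6, 22.7 and 27.1 CPM. All DTR IP libraries lay under all control IP libraries, with an LFC of -1.46 ± 0.28 (SE, 95% interval -2.05 to -0.87, limma adjusted p = 0.0012), and this call held under every alternative tried. In input the DTR libraries averaged 15.0 ± 4.67 CPM against 25.4 ± 6.55 CPM in control (SD, n = 4). The ranges overlapped by 1 DTR and 1 control library, and the LFC of -0.80 ± 0.28 (SE) did not pass (limma adjusted p = 0.075). It passed (adjusted p = 0.0015) in a fit that blocks on the replicate number, called the replicate block from here on. In these bulk samples, fewer cells that make a transcript and less of it per cell cannot be told apart, and the supporting cell markers, whose summed level was 3630 to 4490 CPM in control IP and 2560 to 3050 CPM in DTR IP with none at 0, were lower alongside Ntf3 for 8 of 12 genes. Sparcl1 alone made up a mean of 1770 of the summed 3940 CPM of control IP. For DTR IP this was 1780 of 2860 CPM, and Sparcl1 did not pass after damage (LFC 0.12, limma adjusted p = 0.64). The sum thus follows this 1 gene closely. Over the 12 markers the median LFC after damage in IP was -1.31 (range -4.08 to 0.16), beside -1.46 for Ntf3. The part of these markers in the Ntf3 result was not tested.

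**Figure D1:**
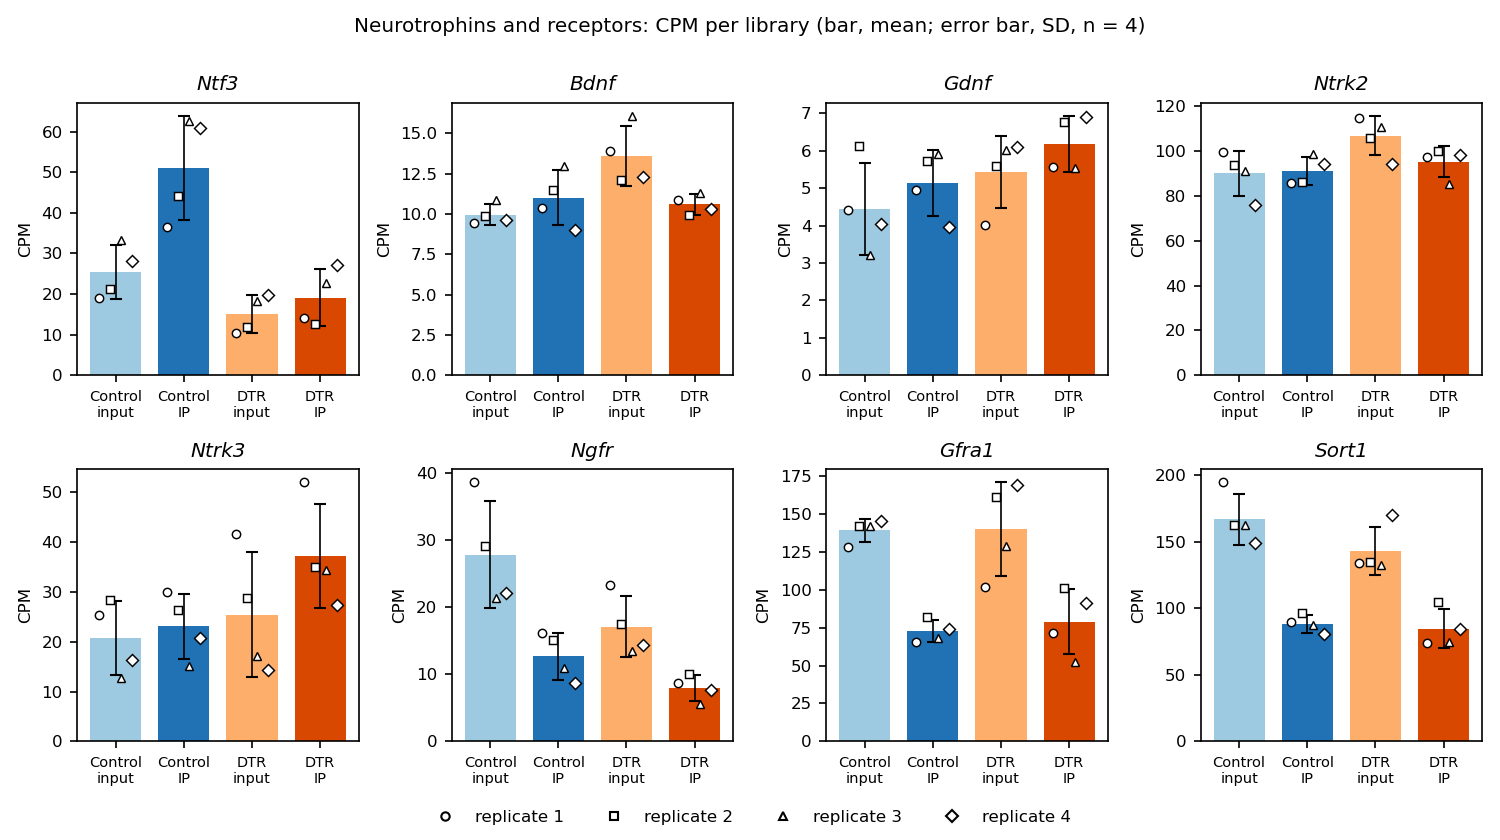
CPM of each of the 8 genes (vertical axes, linear, starting at 0) in the 4 groups; bars are means, error bars SD over 4 libraries, and symbols the libraries by replicate number. Ntf3 is highest in control IP and the DTR IP libraries, between 12.6 and 27.1 CPM, all sit below it, while Ngfr, Gfra1 and Sort1 are lower in IP than in input of the same treatment.

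In DTR cochleae the IP and input levels of Ntf3 overlapped, with an LFC of 0.31 ± 0.28 (SE, limma adjusted p = 0.42). Under the replicate block, which here is the pool, the same LFC passed (adjusted p = 0.031). The IP:input ratio within a pool, computed on CPM plus 0.5, was 1.90, 2.05, 1.86 and 2.15 in the control pools. It was 1.35, 1.07, 1.24 and 1.36 in the DTR pools. The 2 sets of ratios did not overlap, which held for 5.38% of the tested genes in either direction. The test of this same difference over all libraries did not pass (interaction LFC -0.66 ± 0.40 SE, limma adjusted p = 1 and, blocked by pool, 0.12).

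RefSeq lists 2 start sites for Ntf3 and 1 for Ngfr, the 2 members that were lower after damage, and the bases upstream of the inner Ntf3 start and of the Ngfr start are shown for that reason. The Ntf3 stretch (GRCm38.p6, chr6:126164961-126165210, minus strand) lies inside the gene, in an intron of the longer transcripts. The Ngfr stretch (GRCm38.p6, chr11:95587736-95587948, minus strand) ends just before the first annotated exon. Capitals mark GC boxes, the binding letters of Sp and Krueppel-like factors.
Ntf3: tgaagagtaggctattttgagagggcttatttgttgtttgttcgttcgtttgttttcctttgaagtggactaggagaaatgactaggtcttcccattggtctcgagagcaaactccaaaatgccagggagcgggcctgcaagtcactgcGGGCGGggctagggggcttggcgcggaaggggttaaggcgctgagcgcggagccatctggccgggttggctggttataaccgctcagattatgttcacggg
Ngfr: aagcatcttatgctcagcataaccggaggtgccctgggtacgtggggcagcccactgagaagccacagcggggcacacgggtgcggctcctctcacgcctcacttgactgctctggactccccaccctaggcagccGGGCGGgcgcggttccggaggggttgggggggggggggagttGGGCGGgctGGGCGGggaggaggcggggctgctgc
The GC box (GGGCGG on either strand) occurred 1 time in the Ntf3 stretch and 3 times in that of Ngfr, and 32.7% of the 32851 RefSeq windows of 250 bases before a start held at least 1. An Egr site (GCGNGGGCG, which shares letters with a GC box) was in neither, and was in 4.70% of all windows. An AP-1 site (TGANTCA) was in neither, against 6.75% of windows, and a CRE (TGACGTCA) was in neither, against 1.55%. Over the 14 start sites listed for 6 of the 8 genes, 5 had a GC box, 1 (of Bdnf) had an AP-1 site and 0 had an Egr site or a CRE. These matches describe letters in a window and are not sites of binding. Ntrk3 and Sort1 had no promoter sequence to search.

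Bdnf (ENSMUSG00000048482, chromosome 2 from 109674700 to 109727007, plus strand) lay between 8.99 and 16.1 CPM in all libraries. Its control input levels were 9.46, 9.85, 10.9 and 9.65 CPM. Its control IP levels were 10.4, 11.5, 13.0 and 8.99 CPM, which overlapped input (LFC 0.16, limma adjusted p = 0.39). After damage the input libraries had 13.9, 12.1, 16.1 and 12.3 CPM, each above every control input library, but the LFC of 0.41 ± 0.14 (SE) did not pass (limma adjusted p = 0.073). DESeq2 on the recovered reads put the same comparison at an adjusted p of 0.029, and the block left it at 0.051. The DTR IP libraries were at 10.9, 9.93, 11.3 and 10.3 CPM, each under every DTR input library. That LFC was -0.34 ± 0.14 (SE, limma adjusted p = 0.067) and passed under the replicate block (adjusted p = 0.030), on median-centred CPM (0.045) and in DESeq2 (0.033). Between DTR IP and control IP the LFC was -0.10 with a 95% interval of -0.40 to 0.20. The IP:input ratios were 0.935 to 1.19 in control pools and 0.712 to 0.840 in DTR pools, again with no overlap. The interaction LFC was -0.51 ± 0.20 (SE), with an unadjusted limma p of 0.022 and an adjusted p of 0.81. Gm45346, an antisense gene, overlaps exons of Bdnf, and since the strand setting of the counting is not given in the sources used here, reads of the pair cannot be told apart.

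Within a library, the ratio of Ntf3 to Bdnf does not depend on how libraries are scaled, and it was lower after damage. Per kilobase, Ntf3 was 12.7 to 24.6 times as abundant as Bdnf in control IP and 4.59 to 9.58 times in DTR IP. In input the ratio was 7.28 to 11.1 in control and 2.69 to 5.82 in DTR. Neither pair of ranges overlapped, and how often this holds for other pairs of genes was not tested. In IP the LFC after damage was -1.46 for Ntf3 and -0.10 for Bdnf. In input it was -0.80 for Ntf3 and 0.41 for Bdnf, and neither passed there.

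Gdnf (ENSMUSG00000022144, chromosome 15 from 7810846 to 7837575, plus strand) was the least abundant of the 8 genes in CPM, and it did not pass in any comparison. It was at 3.22 to 6.14 CPM in control input, 3.96 to 5.91 in control IP, 4.02 to 6.09 in DTR input and 5.53 to 6.91 CPM in DTR IP, so all groups overlapped. Between DTR IP and control IP its LFC was 0.14 (95% interval -0.27 to 0.55).

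Among the Trk receptors, Ntrk2 (ENSMUSG00000055254, chromosome 13 from 58806569 to 59133970, plus strand) did not pass in any comparison. Its levels were 75.8 to 99.5 CPM in control input, 85.7 to 98.6 in control IP, 94.4 to 115 in DTR input and 85.2 to 100 CPM in DTR IP. The 95% interval of its LFC was -0.18 to 0.26 for control IP against input and -0.16 to 0.28 for DTR IP against control IP. In input after damage the LFC was 0.24 ± 0.10 (SE, limma adjusted p = 0.16).

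Ntrk3 (ENSMUSG00000059146, chromosome 7 from 78175959 to 78738012, minus strand) had the largest SE of the 8 genes. In control input it was at 25.4, 28.3, 12.7 and 16.4 CPM, and in control IP at 30.0, 26.4, 15.2 and 20.8 CPM. In DTR input it was at 41.6, 28.7, 17.1 and 14.3 CPM, and in DTR IP at 52.0, 34.9, 34.4 and 27.4 CPM. Replicate 1 was the highest library in 3 of the groups, and every pair of groups overlapped. The LFC of DTR IP against control IP was 0.64 (SE 0.30, limma adjusted p = 0.17). The replicate block gave it an adjusted p of 0.0072. DTR IP against DTR input gave an LFC of 0.58 ± 0.30 (SE, limma adjusted p = 0.13), which passed under the replicate block (adjusted p = 0.0036). Without DTR input replicate 1 it was 0.85 (adjusted p = 0.028). Gm39038, a gene on the same strand, overlaps annotated exons of Ntrk3.

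Spiral ganglion neurons, a known site of both Trk receptors, had been dissected away, but none of 12 neuron markers was at 0. Gata3 and Isl1, which cochlear epithelium also makes, averaged 682 and 998 CPM of a summed 1920 CPM in control IP, and were the 2 that passed as higher in control IP than in control input and the 2 that passed as lower after damage, in IP and in input. The other 10 summed to 209 to 873 CPM in control input and 126 to 348 CPM in control IP. Beside 20.7% and 19.3% of all tested genes, 5 of these 10 were lower in control IP and 0 higher. After damage they summed to 91.8 to 748 CPM in input and 55.9 to 355 CPM in IP, and 0 passed in limma against control in either, with 1 at an unadjusted p under 0.05 in each. Their part in the levels of Ntrk2 and Ntrk3 was not tested.

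Ngfr (ENSMUSG00000000120, chromosome 11 from 95568818 to 95587735, minus strand) was 0.476 times as abundant in IP as in input by the fit, and lower in DTR than in control libraries of either kind. Control input had 38.6, 29.1, 21.4 and 22.1 CPM. Control IP had 16.1, 15.1, 10.9 and 8.66 CPM, all under the control input libraries (LFC -1.07 ± 0.22 SE, limma adjusted p = 0.00066). DTR input had 23.3, 17.5, 13.4 and 14.3 CPM, and DTR IP had 8.64, 10, 5.5 and 7.63 CPM. Every DTR IP library lay under every DTR input library, by the same LFC of -1.07 ± 0.22 (SE, limma adjusted p = 0.00073). After damage the LFC was -0.69 in IP (SE 0.22, limma adjusted p = 0.036) and also -0.69 in input (SE 0.22, adjusted p = 0.043), with ranges that overlapped in both. These 2 calls were close to the threshold. The IP call was lost on CPM without quantile normalization (adjusted p = 0.082) and without the filter (0.077), and the input call likewise (0.077 and 0.087) and in edgeR (0.061). In IP the adjusted p was 0.11 without control replicate 1, 0.088 without control replicate 2, 0.053 without control replicate 3, 0.061 without DTR replicate 1, 0.12 without DTR replicate 3 and 0.06 without DTR replicate 4. In input it was 0.16 without control replicate 1, 0.1 without control replicate 2, 0.074 without DTR replicate 2, 0.12 without DTR replicate 3 and 0.11 without DTR replicate 4. Under the replicate block the adjusted p was 0.011 in IP and 0.0016 in input. Schwann and satellite glia are known to express Ngfr. Their 10 markers, of which Sox10 is also made by cochlear epithelium and none was at 0, summed to 2810 to 4910 CPM in control input, 1450 to 2250 in DTR input, 885 to 1360 in control IP and 681 to 947 CPM in DTR IP. Of the 10, 6 were lower in DTR input than in control input, beside 5.21% of all tested genes. In IP 2 were lower and 1 was higher after damage, beside 7.3% and 8.44%. The part of these glia in the Ngfr result was not tested. Of the 12 supporting cell markers, 8 were lower after damage in IP and 8 in input, beside 7.3% and 5.21% of all tested genes. The part of supporting cells in the Ngfr result was not tested either.

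**Figure D2:**
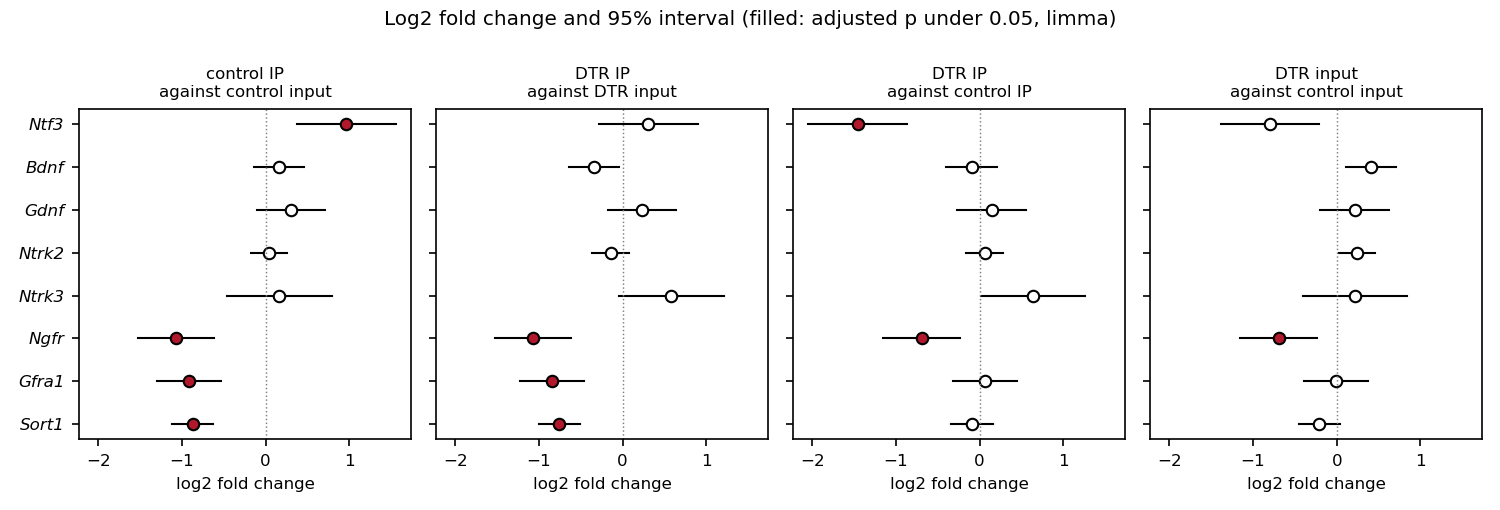
LFC (horizontal axes) of the 8 genes in the 4 comparisons of 2 groups; points are limma estimates, lines their 95% intervals, and filled points passed at an adjusted p under 0.05. Ngfr, Gfra1 and Sort1 lie left of 0 in both comparisons of IP with input. In DTR IP against control IP the filled points are Ntf3 and Ngfr, both left of 0. In DTR input against control input Ngfr alone is filled.

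The co-receptors Gfra1 and Sort1 were lower in IP than in input, and neither passed in a comparison of DTR with control. Gfra1 (ENSMUSG00000025089, chromosome 19 from 58235604 to 58455909, minus strand) was at 128, 142, 142 and 145 CPM in control input and at 65.4, 82.0, 68.4 and 74.2 CPM in control IP. It was at 102, 161, 129 and 169 CPM in DTR input and at 71.7, 101, 52.2 and 90.9 CPM in DTR IP. IP lay under input in every library of both treatments, with an LFC of -0.92 in control (SE 0.18, limma adjusted p = 0.00052) and -0.84 in DTR cochleae (SE 0.18, adjusted p = 0.0012). Its LFC after damage had a 95% interval of -0.32 to 0.44 in IP and -0.39 to 0.37 in input.

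Sort1 (ENSMUSG00000068747, chromosome 3 from 108284082 to 108361511, plus strand) was at 195, 163, 163 and 149 CPM in control input and at 90.1, 96.7, 87.2 and 80.4 CPM in control IP. In DTR input it was at 134, 135, 133 and 170 CPM, and in DTR IP at 74.1, 105, 74.6 and 84.7 CPM. IP was again the lower in every library, with an LFC of -0.87 in control (SE 0.12, limma adjusted p = 1.2e-05) and -0.76 in DTR cochleae (SE 0.12, adjusted p = 6.5e-05). The interval after damage was -0.34 to 0.16 in IP and -0.46 to 0.04 in input. Gm16277 overlaps exons of Gfra1 and Gm12523 exons of Sort1, both on the opposite strand.

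**Figure D3:**
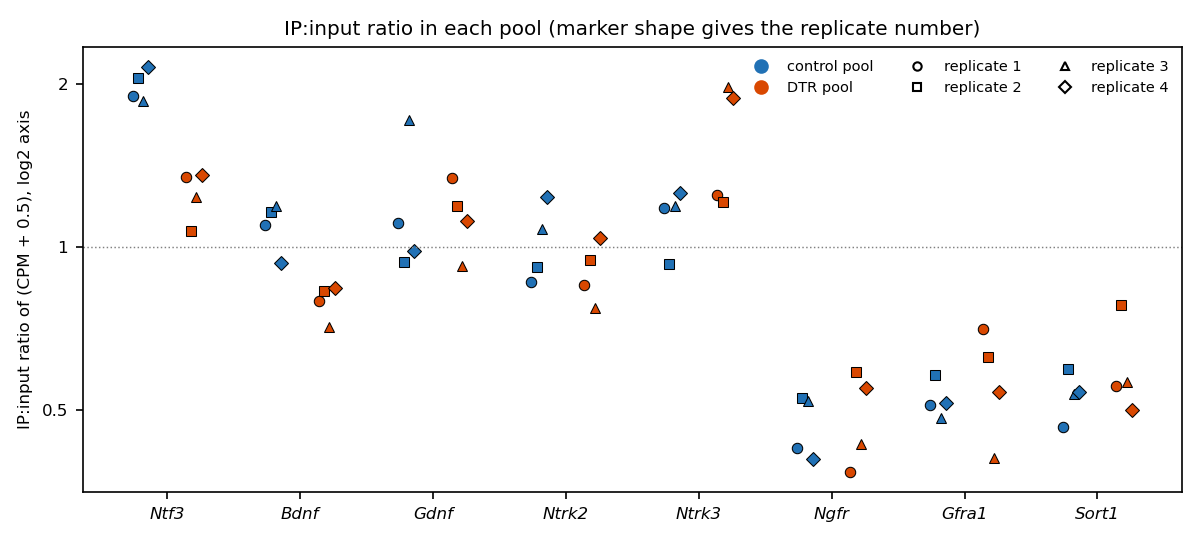
IP:input ratio of CPM plus 0.5 (vertical axis, log2 scale) for each gene in the 4 control and 4 DTR pools; colour gives the treatment, symbol the replicate number, and the dotted line a ratio of 1. Control pools sit above all DTR pools for Ntf3 (1.86 to 2.15 against 1.07 to 1.36) and for Bdnf, and the other 6 genes overlap.

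Counted together, 4 of the 8 genes passed in control IP against control input (Ntf3 higher, Ngfr, Gfra1 and Sort1 lower), where 39.9% of all tested genes passed. In DTR IP against DTR input 3 passed (Ngfr, Gfra1 and Sort1, all lower), against 39.2% of genes, and 6 passed under the replicate block, against 48.2%. In DTR IP against control IP 2 passed (Ntf3 and Ngfr, both lower), against 15.7% of genes, and 3 passed with the block (Ntrk3 in addition, higher), against 22.3%. In DTR input against control input 1 passed (Ngfr, lower), against 12.4%, and 2 passed with the block (Ntf3 and Ngfr), against 17.1%. The 4 comparisons share libraries, so these counts are not independent of each other. In the interaction 0 passed in limma, edgeR and DESeq2 and with the block, 1 (Bdnf) had an unadjusted limma p under 0.05, and 0.0118% of all genes passed (0.235% with the block). The median LFC of the 8 genes was 0.10, -0.24, -0.02 and 0.10 in the 4 comparisons of 2 groups, beside 0.00, -0.03, 0.00 and -0.02 over all tested genes.

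The wider pathway was taken as a list of 54 ligands, receptors, processing enzymes and intracellular adaptors that includes the 8 genes, and 38 of the other genes could be tested. Of these 38, 9 were higher and 10 lower in control IP than in control input, where 19.3% of all tested genes were higher and 20.7% lower. In DTR cochleae 7 were higher and 12 lower in IP, against 18.6% and 20.5% of all genes. After damage 3 were higher and 4 lower in IP, against 8.44% and 7.3% of all genes, and 0 were higher and 2 lower in input, against 7.17% and 5.21%. Those that passed in IP were Sorcs2, Sorcs3 and Kidins220 (higher) and Plat, Shc3, Dok4 and Dok5 (lower), and those in input were Gfra3 and Dok5.

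Among the ligands, Ntf5, the gene of NT-4, was at 2.55 to 3.26 CPM in control input and 3.47 to 4.58 CPM in control IP, with no overlap (LFC 0.45, limma adjusted p = 0.037).

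Of 16 tested receptors on the list, which include 5 of the 8 genes, 1 was higher and 8 were lower in control IP than in its input, beside 19.3% and 20.7% of all genes. In DTR IP 3 were higher and 8 lower than in its input, beside 18.6% and 20.5%. Sorcs2, a sortilin relative, was at 63.5 to 91.7 CPM in control input and 29.0 to 38.2 CPM in control IP (LFC -1.13 ± 0.14 SE, limma adjusted p = 6.5e-06). All DTR IP libraries, at 42.1 to 48.1 CPM, were above all control IP libraries (LFC 0.44, limma adjusted p = 0.048). Sorcs3, of the same family, was at 40.6 to 57.4 CPM in DTR IP and 27.5 to 35.5 CPM in control IP (LFC 0.63, limma adjusted p = 0.0052). Gfra3, the artemin co-receptor, was low throughout, at 2.07 to 3.10 CPM in control input and 0.389 to 0.719 CPM in control IP. It was at 0.366 to 1.71 CPM in DTR input and 0 to 0.578 CPM in DTR IP. Gfra3 had 13 to 22 reads per library in control IP, 12 to 67 in DTR input and 0 to 18 in DTR IP. Its LFC was -1.39 in control IP against input (limma adjusted p = 6e-04) and -1.12 in input after damage (adjusted p = 0.011).

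Of the adaptors, Dok5, which docks on Trk and Ret receptors, was, like Ntf3, higher in control IP than in control input and lower after damage in IP. It was at 15.4 to 20.2 CPM in control input, 32.4 to 41.7 in control IP, 8.36 to 11.8 in DTR input and 12.0 to 15.2 CPM in DTR IP. Its LFC after damage was -1.52 in IP (SE 0.15, limma adjusted p = 7.7e-07) and -0.91 in input (adjusted p = 0.00031). Kidins220, a membrane scaffold of Trk receptors, was at 62.3 to 102 CPM in control input and 34.4 to 46.3 CPM in control IP (LFC -1.03, limma adjusted p = 2.2e-06), and at 52.6 to 62.6 CPM in DTR IP, above every control IP library (LFC 0.49, adjusted p = 0.0088). Dok4 and Shc3 were lower after damage in IP, by LFCs of -0.93 and -0.86 (limma adjusted p = 0.00093 and 0.011).

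Several of the 8 genes differed between replicate numbers in a like way across groups. Ntf3 was above its group mean in replicates 3 and 4 of all 4 groups and below it in replicates 1 and 2, with mean deviations of -0.46, -0.32, 0.38 and 0.39 on the log2 scale for replicates 1 to 4. Ngfr went the other way, at 0.33, 0.17, -0.28 and -0.21, and so did Ntrk3, at 0.50, 0.22, -0.38 and -0.33, although Ngfr was above its group mean in replicate 4 of 1 group, and Ntrk3 was above it in replicate 2 of 3 groups and replicate 4 of 1. Neuron markers without Gata3 and Isl1 differed between the same numbers. Their sum in replicates 1 to 4 was 873, 786, 251 and 209 CPM in control input, and 342, 348, 152 and 126 CPM in control IP. It was 748, 442, 230 and 91.8 CPM in DTR input, and 355, 205, 139 and 55.9 CPM in DTR IP. The sum of the 10 glial markers was higher in replicates 1 and 2 than in 3 and 4 in control but not in DTR libraries. This did not hold for every glial marker by itself. The part of these neuron and glial markers in the spread of Ntrk3 and Ngfr was not tested. Gfra1 was above its group mean in replicates 2 and 4 of every group. What the replicate numbers share is not given in the sources used here.

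The genes whose log2 levels ran most closely with each member over the 16 libraries are given as a description, since the libraries share groups, pools and replicate numbers. For Ntf3 they were Ninj1 (Pearson's r = 0.983), G430095P16Rik (0.979) and Pomgnt2 (0.951). For Ngfr they were Cadm4 (r = 0.967), Ric3 (0.956) and Ywhag (0.952). For Sort1 they were Pcyt1a (r = 0.979), Exoc6b (0.977) and Ndst1 (0.976), and for Gfra1 Fbxl7 (0.958), Timp3 (0.954) and Plxdc2 (0.953). The other 4 genes had less close matches. They were Timm17a (r = 0.871), Txnip (0.867) and Tial1 (0.859) for Ntrk3, and Gm16477 (0.831), Gm9493 (0.744) and Cfap157 (0.742) for Bdnf. For Gdnf they were D030068K23Rik (r = 0.821), A430106G13Rik (0.804) and Fgd3 (0.790), and for Ntrk2 Tamm41 (0.820), Psma6 (0.815) and Prps1 (0.810).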

How the data were processed

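RNA of 16 libraries from P4 cochleae was analysed, 4 per group, from SMART-Seq v4 libraries. The authors aligned reads to GRCm38 with HISAT2 and counted them on genes with HTSeq by their methods, while the processing notes in the labels name TopHat; the annotation release and strand setting are not given in the sources used here. The deposited values are CPM, made by the authors for every gene of a library. Each column summed to 1000000, and 100% of values were whole multiples of 1 read (tolerance 0.1 read), so reads were recovered for count tools. The files list 50316 genes, 47729 of them with values.

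These CPM were quantile normalized and log2 transformed with a pseudocount of 0.5, and a gene was kept if some group had 0.5 CPM or more in each of its 4 libraries. The 16994 genes kept were fitted with limma 3.58.1 in R 4.3.3 (16 libraries, 4 group means, mean-variance trend, two-sided, Benjamini-Hochberg over all tested genes). A gene passed at an adjusted p under 0.05. LFCs of low genes are understated on the log2(CPM + 0.5) scale. The scripts were tested on simulated data. Nothing in the labels says that replicates came from separate litters, and limits in CPM cover counting error only.

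IP and input of 1 number come from 1 homogenate. Deviations of same-numbered libraries from their group means correlated in each pair of groups that shared a treatment or a sample type. The lowest Pearson's r across genes was 0.288, and the means were 0.357 to 0.407. Means for other numbers were -0.135 to -0.119. Subtracting group means pulls these below 0 when same-numbered ones are above it, so they are no independent baseline. Because same-numbered libraries correlated, the pool, or the number between treatments, was used as a block as an alternative. Other alternatives were no quantile normalization, median centring, pseudocounts of 0.1 and 1, no filter, a minimum of 2 CPM, edgeR 4.0.16 and DESeq2 1.42.0 on recovered reads, and each library left out in turn. Members and lists were chosen with earlier results of these data known. Named were the 8 members, pathway genes that passed with an absolute LFC of at least 1 or in counts of 5 or fewer, and the 3 most correlated genes of each member. Some genes that this rule covers are not reported here. Positions are those of GENCODE M21 and promoter sequences those of RefSeq (GRCm38.p6), which held 6 of the 8 genes.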

Additional observations from a re-analysis of the deposited data

Results flagged for a closer look

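In 1 of 32 sets of 4 libraries (8 genes in 4 groups), 1 library stood apart from the other 3 by more than the 95% limit of Dixon's test. Sort1 was at 170 CPM in DTR input replicate 4 and at 133 to 135 CPM in the other 3 libraries, a gap of 0.946 of the range. Chance alone flags about 1 in 20 such sets.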

How the results depend on the processing

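The counts of passing genes moved by more than 1.5 times in these cases. Of the 8 genes, 6 passed in DTR IP against DTR input with the replicate block, in place of 3. In DTR IP against control IP 1 passed without quantile normalization and 1 without the filter, in place of 2, and 1 to 2 passed with single libraries left out. In DTR input against control input 0 passed without quantile normalization, without the filter and in edgeR, 2 with the replicate block and 3 in DESeq2, in place of 1, and 0 to 1 with single libraries left out. Of the pathway list, 6 passed in DTR input against control input with the replicate block and 1 in edgeR, in place of 3, and 2 to 4 with single libraries left out. The cause was not tested. Among the 8 genes the replicate block changed no call beyond those given for Ntf3, Bdnf and Ntrk3. Among the other tested pathway genes it added calls for Nrtn and Pcsk6 (DTR IP against control IP), Furin (control IP against input), Plat and Sh2b1 (DTR IP against input), Shc2 and Dok4 (control IP against input and DTR input against control input), and took none away. The 10 passing values of single genes kept their direction under every alternative. Values near 0 that had not passed changed sign. For Ntrk2 in DTR IP against control IP the LFC was -0.011 in edgeR and -0.011 in DESeq2, for Gfra1 in DTR input against control input 0.003 in edgeR, and for Ngfr in the interaction -0.029 in edgeR and -0.015 with a pseudocount of 0.1. With single libraries left out, LFCs ranged from -0.038 to 0.085 for Ntrk2 and from -0.035 to 0.33 for Ntrk3 in control IP against input, from -0.068 to 0.25 for Gfra1 in DTR IP against control IP, and from -0.044 to 0.46 for Ntrk3 and -0.11 to 0.14 for Gfra1 in DTR input against control input. In the interaction they ranged from -0.24 to 0.036 for Gdnf, from -0.17 to 0.14 for Ngfr and from -0.081 to 0.26 for Gfra1. The lowest library of any of the 8 genes held 121 reads. In the comparisons of 2 groups, SEs of an LFC ran from 0.10 for Ntrk2 to 0.30 for Ntrk3. The parts of depth and of the spread between replicates in these SEs were not tested.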
